A study of Mus musculus with 6 samples.

Results

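DNA damage sensing and repair genes were examined in LSKs (Lin- Sca-1+ c-Kit+ bone marrow cells, the fraction that contains hematopoietic stem and progenitor cells) from irradiated Tespa1+/+ and Tespa1-/- mice. The members were 46 named genes, all of which were found among the 55487 genes of the deposited table and passed the filter on low counts. They were grouped by role into 7 sets, which were checkpoint kinases, break sensing and chromatin signalling, end joining, recombination, the Fanconi pathway, mismatch repair, and excision and single-strand break repair. The samples were 3 wild-type littermate (Tespa1+/+) and 3 Tespa1-null (Tespa1-/-) RNA-seq libraries. Per the study's methods, mice of 8 to 10 weeks received 5 Gy of total body irradiation and LSK RNA was taken at day 13. Both groups were thus irradiated, and no library from unirradiated mice was analysed here. The deletion was not described as restricted to blood cells, and whether a library came from 1 mouse or from pooled mice was not stated.

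A break through both DNA strands is bound by the Mre11-Rad50-Nbn complex, which recruits the kinase ATM, while ATR responds to single-stranded DNA at stalled replication forks. Their signals spread over chromatin through MDC1, RNF8, RNF168 and 53BP1 and stop the cell cycle through the CHK1 and CHK2 kinases. Broken ends are then joined directly by Ku, DNA-PKcs and ligase IV or copied from the sister chromatid by recombination, and hematopoietic stem cells depend on these pathways after irradiation.

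Total counts ranged from 12856630 to 30576981 per library, and members had between 45 and 16020 counts per library. Tespa1, the targeted gene, was at 34.5, 32.7 and 36.0 CPM (the normalised read count, set to a common total after TMM scaling) in Tespa1+/+ and at 15.3, 14.3 and 14.2 CPM in Tespa1-/- libraries, so it was reduced but still counted. Of 9 LSK and stem cell markers, 8 were lower by more than 1.5-fold in Tespa1-/- LSKs (adjusted p under 0.05), with summed levels of 1182 to 1208 against 640.7 to 659.9 CPM, and none was absent. All 10 neutrophil markers were higher (adjusted p under 0.05), 9 of them by more than 1.5-fold. Their sums were 8482 to 9111 against 13340 to 13730 CPM. Most of each sum was Mpo, the marker below 1.5-fold (means of 7524 against 10500 CPM), and Elane (1290 against 2573 CPM). Ngp, a granule protein of maturing neutrophils, was at 0.252 CPM in Tespa1+/+ and 72.0 CPM in Tespa1-/- LSKs (group means). These markers move with every comparison that follows, and their part in it was not tested. In sorted bulk samples, fewer cells of a type and less RNA per cell cannot be told apart.

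The members that changed most in Tespa1-/- LSKs were lower, and among the 46 the kinase genes Atm and Prkdc fell farthest. A gene was called where its fold exceeded 1.5 and its adjusted p lay under 0.05 (edgeR quasi-likelihood test over 15332 genes). By this rule 9 members were called lower and 0 were called higher. The members called lower were 19.6% of the 46, against 19.2% of all genes tested, so this share was near the background. Called rises made up 14.0% of all genes tested. The 9 genes were Atm, Prkdc, Atr, Mdc1, Wrn, Trp53bp1, Dclre1c, Blm and Lig3. At an adjusted p under 0.05 with any fold, 18 members (39.1%) were lower and 6 (13%) were higher, while 31.8% of all genes tested were lower and 31.5% higher. The median log2 fold change of the members was -0.15, and that of all genes was -0.00.

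**Figure D1:**
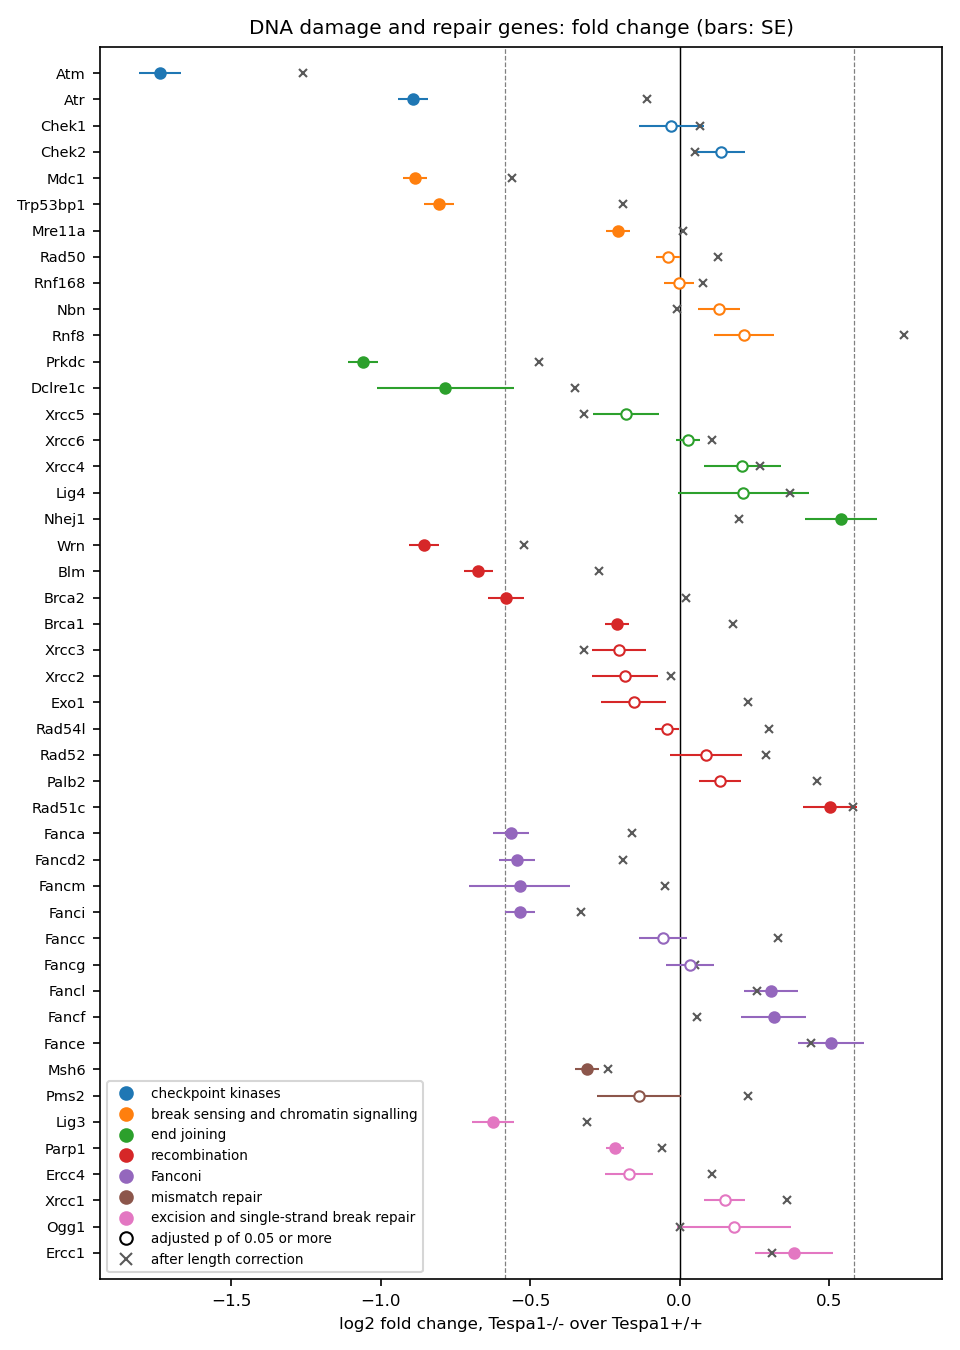
Log2 fold change of each of the 46 members (Tespa1-/- over Tespa1+/+), ordered by role, with SE bars. Filled points passed an adjusted p of 0.05, crosses give the value after the length correction, and dashed lines mark a fold of 1.5. Atm at -1.74 lies farthest left, no uncorrected point passes the right line, and the crosses of most members on the left lie nearer to 0.

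Long genes were lower in these Tespa1-/- libraries across the whole table, and many repair genes are long. Union exon length and the log2 fold change had a Spearman's rho of -0.614 over 10131 genes whose mean log2 CPM exceeded 3 (a description across genes, which are not independent replicates). Across the 46 members, which share the same 6 libraries, rho was -0.70. Among members with under 3000 bases of exon, 0 of 6 were called lower, against 10.3% of all genes of that length. Between 3000 and 6000 bases this held for 0 of 19 members, against 16.9% of genes. Between 6000 and 9000 bases it held for 4 of 13 members, against 30.1% of genes, and above that for 5 of 8, against 46.5%. Most members called lower thus had lengths at which many other genes were lower too, and the main results are given with values after a length correction, in which the trend with exon length was fitted in each library and removed. Lower calls then fell to 1 member, Atm, and higher calls rose to 1 member, Rnf8, against 15.2% and 8.21% of all genes. At any fold, 12 members were then lower and 11 higher (adjusted p under 0.05), against 18 and 6 without the correction. The matching shares of all genes were not computed. The median of the members became 0.05, and that of all genes 0.02. The correction removes any biological difference that runs with length as well.

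**Figure D2:**
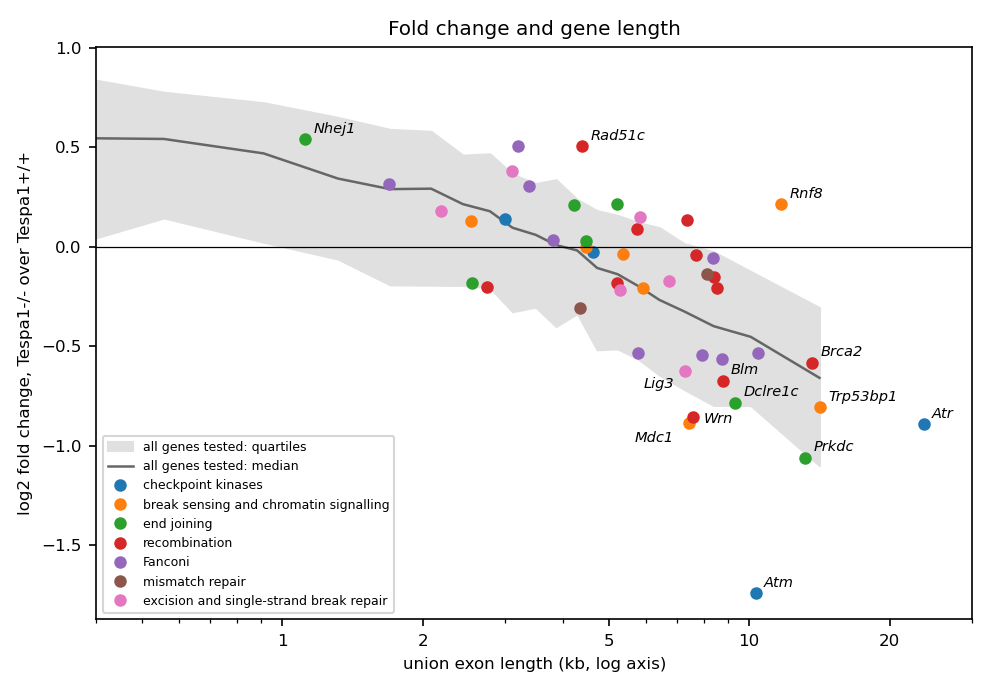
Log2 fold change (Tespa1-/- over Tespa1+/+) against union exon length in kb on a log axis, with 1 point per member coloured by role. The grey line and band give the median and quartiles of all genes tested in bins of length. Most members lie inside the band, Atm, Mdc1, Wrn and Atr are among those below it or beyond its end, and Rnf8 and Rad51c lie above it.

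Among checkpoint kinases, both upstream kinases fell while neither downstream kinase passed the test. Atm (ENSMUSG00000034218, GRCm38 chromosome 9, 53439149 to 53536740) encodes the kinase activated by double-strand breaks. It had 1605, 2836 and 1223 counts in Tespa1+/+ and 480, 358 and 312 counts in Tespa1-/- libraries. Its level was 86.9 ± 3.87 against 26.0 ± 1.91 CPM (SD, n = 3 each), and the groups did not overlap. The fall was 3.34-fold (log2 fold change -1.74, SE 0.07, edgeR adjusted p 1.89e-06). After the length correction the value was -1.26 (adjusted p 1.04e-05), and over the 16 alternative settings it ranged from -1.84 to -1.26.

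Atr, the kinase of replication stress, was at 103, 95.5 and 94.4 CPM in Tespa1+/+ and at 51.2, 55.4 and 51.2 CPM in Tespa1-/- libraries. The groups did not overlap, and the difference was -0.89 in log2 units (SE 0.05, edgeR adjusted p 9.62e-06). After the length correction it was -0.11 with an adjusted p of 0.092, and its union exon length of 23629 bases was the longest among the members. Chek1, whose kinase acts below ATR, had counts of 803, 1489 and 557 against 751, 540 and 565, with a log2 fold change of -0.03 (SE 0.11). Chek2, the effector of ATM, was at 23.1 ± 1.03 against 25.3 ± 2.12 CPM (SD, n = 3 each), a difference of 0.14 on the log2 scale (SE 0.08). Levels of both overlapped between the groups.

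The break sensing genes called lower were Mdc1 and Trp53bp1, which encode chromatin scaffolds, and neither was called after the correction by exon length. With gene length taken from the ratio of count to FPKM instead, Mdc1 was still called lower. Mdc1, the scaffold that reads phosphorylated H2AX (ENSMUSG00000061607, chromosome 17, 35841515 to 35859670), had 2183, 3979 and 1789 counts in Tespa1+/+ and 1118, 947 and 840 counts in Tespa1-/- libraries. This is 122.3 ± 3.23 against 66.2 ± 1.35 CPM (SD, n = 3 each) with no overlap. The log2 difference of -0.89 had an SE of 0.04 (edgeR adjusted p 2.79e-06). It stayed at -0.56 after the length correction (adjusted p 3.09e-05), just short of a fold of 1.5. Trp53bp1, which encodes the 53BP1 protein that favours end joining, was at 73.8, 74.3 and 74.8 CPM in Tespa1+/+ and at 39.9, 43.0 and 44.9 CPM in Tespa1-/- libraries. Its log2 fold change of -0.80 (SE 0.05, adjusted p 1.53e-05) became -0.19 after the correction (adjusted p 0.017).

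The genes of the Mre11-Rad50-Nbn complex had log2 fold changes between -0.21 and 0.13. Mre11a, the nuclease subunit, was lower by a small amount (log2 fold change -0.21, SE 0.04, edgeR adjusted p 0.0042) and stood at 0.01 after the length correction. Rad50 was at -0.04 (SE 0.04) and Nbn at 0.13 (SE 0.07), and neither passed the test.

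Rnf168, a ubiquitin ligase that marks H2A next to breaks, was the sensing gene nearest to no change. Its counts were 1147, 2034 and 932 in Tespa1+/+ libraries against 1073, 877 and 828 in the other group, or 63.5 ± 0.823 against 63.4 ± 3.20 CPM (SD, n = 3 each). Rnf8, the ligase that acts before it, was at 21.3, 25 and 25.2 CPM against 27.5, 25.1 and 30.4 CPM, so the groups overlapped. Its difference of 0.22 on the log2 scale (SE 0.10, edgeR adjusted p 0.0932) became 0.75 with the length correction (adjusted p 6.28e-04), so its call rests on that correction. Its union exon length is 11703 bases, and 13.18% of it is shared with Gm28043, a gene on the same strand, so its count is uncertain.

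Of the 7 end joining genes, the kinase and the nuclease of the pathway were called lower. The Ku and ligase genes did not pass the test without the length correction. Prkdc, which encodes DNA-PKcs (ENSMUSG00000022672, chromosome 16, 15637866 to 15842235), had 1719, 2940 and 1267 counts in Tespa1+/+ and 755, 627 and 542 counts in Tespa1-/- libraries. Its level was 91.1 ± 4.92 against 43.7 ± 0.570 CPM (SD, n = 3 each), again without overlap. On the log2 scale Prkdc stood at -1.06 (SE 0.05, edgeR adjusted p 3.99e-06) and -0.47 after the length correction (adjusted p 1.81e-04). ATM, ATR and DNA-PKcs belong to the same family of large kinases. All 3 genes were called lower, at exon lengths where 46.5% of all genes were, and after the correction by exon length only Atm was still called. With gene length taken from the ratio of count to FPKM instead, Prkdc was still called lower too, and Atr was not.

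Dclre1c, the gene of the end-trimming nuclease Artemis, was the least certain of the called genes. It was at 9.74, 15.7 and 14.4 CPM in Tespa1+/+ and at 5.75, 8.61 and 9.03 CPM in Tespa1-/- libraries (log2 fold change -0.78, SE 0.23, edgeR adjusted p 0.0201). That p was 0.0738 without Tespa1+/+ replicate 2, 0.0608 without Tespa1+/+ replicate 3, 0.0564 without Tespa1-/- replicate 1 and 0.233 after the length correction. Its lowest Tespa1+/+ library lay only slightly above its highest Tespa1-/- library.

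Nhej1, which encodes the end-joining factor XLF, was higher at a fold below 1.5. It was at 4.35, 4.12 and 4.32 CPM in Tespa1+/+ and at 6.87, 5.51 and 6.13 CPM in Tespa1-/- libraries (log2 fold change 0.54, SE 0.12, edgeR adjusted p 0.00548). It has the shortest exons among the members, 1118 bases, and its value after the length correction was 0.20 (adjusted p 0.177). Xrcc6, the gene of Ku70, was the end joining gene nearest to no change, with 1435, 2605 and 1174 counts against 1413, 1176 and 1013 counts and a log2 fold change of 0.03 (SE 0.04). Xrcc5, the gene of its partner Ku80, was at -0.18 (SE 0.11). With the length correction both Ku genes passed, in opposite directions. Xrcc6 was then at 0.11 (edgeR adjusted p 0.0377) and Xrcc5 at -0.32 (adjusted p 0.0472). Xrcc4 and Lig4, whose products form the final ligase, were both at 0.21 (SE 0.13 and 0.22) and did not pass.

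Among 11 recombination genes, the RecQ helicases were called lower. Wrn, the gene mutated in Werner syndrome (ENSMUSG00000031583, chromosome 8, 33234384 to 33385527), had 1394, 2457 and 1055 counts in Tespa1+/+ and 713, 601 and 516 counts in Tespa1-/- libraries. Its level was 75.2 ± 3.57 against 41.6 ± 0.232 CPM (SD, n = 3 each), with no overlap. The log2 difference was -0.85 (SE 0.05, edgeR adjusted p 8.02e-06). After the length correction the value was -0.52 (adjusted p 1.19e-04). Blm, the helicase gene of Bloom syndrome, was at 72.5, 74.9 and 73.5 CPM against 44.7, 45.0 and 49.0 CPM, with a log2 fold change of -0.67 (SE 0.05) that became -0.27 (adjusted p 0.003).

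The mediators and other core genes of strand exchange had values in both directions. Brca2 lay just outside the fold limit at 64.9, 61.1 and 67.6 CPM in Tespa1+/+ and 41.3, 44.4 and 43.5 CPM in Tespa1-/- libraries (log2 fold change -0.58, SE 0.06, edgeR adjusted p 9.10e-05). With its 13643 bases of exon it was at 0.02 after the length correction. Brca1 was at -0.21 (SE 0.04, adjusted p 0.00374), and at 0.18 after the correction, the opposite direction. Rad51c, another strand exchange gene, was higher at 6.33, 6.18 and 5.87 CPM against 8.63, 8.54 and 8.95 CPM (log2 fold change 0.50, SE 0.09, adjusted p 0.00185), and its value after the correction was 0.58. Rad54l, a DNA translocase, was nearest to no change among the recombination genes (-0.04, SE 0.04). Palb2 (0.14), Rad52 (0.09), Xrcc2 (-0.18), Xrcc3 (-0.20) and Exo1 (-0.15) did not pass the test. With the length correction Rad54l (0.30, edgeR adjusted p 6.53e-04), Palb2 (0.46, adjusted p 0.0015) and Xrcc3 (-0.32, adjusted p 0.0203) passed. Rad52, Xrcc2 and Exo1 still did not.

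**Figure D3:**
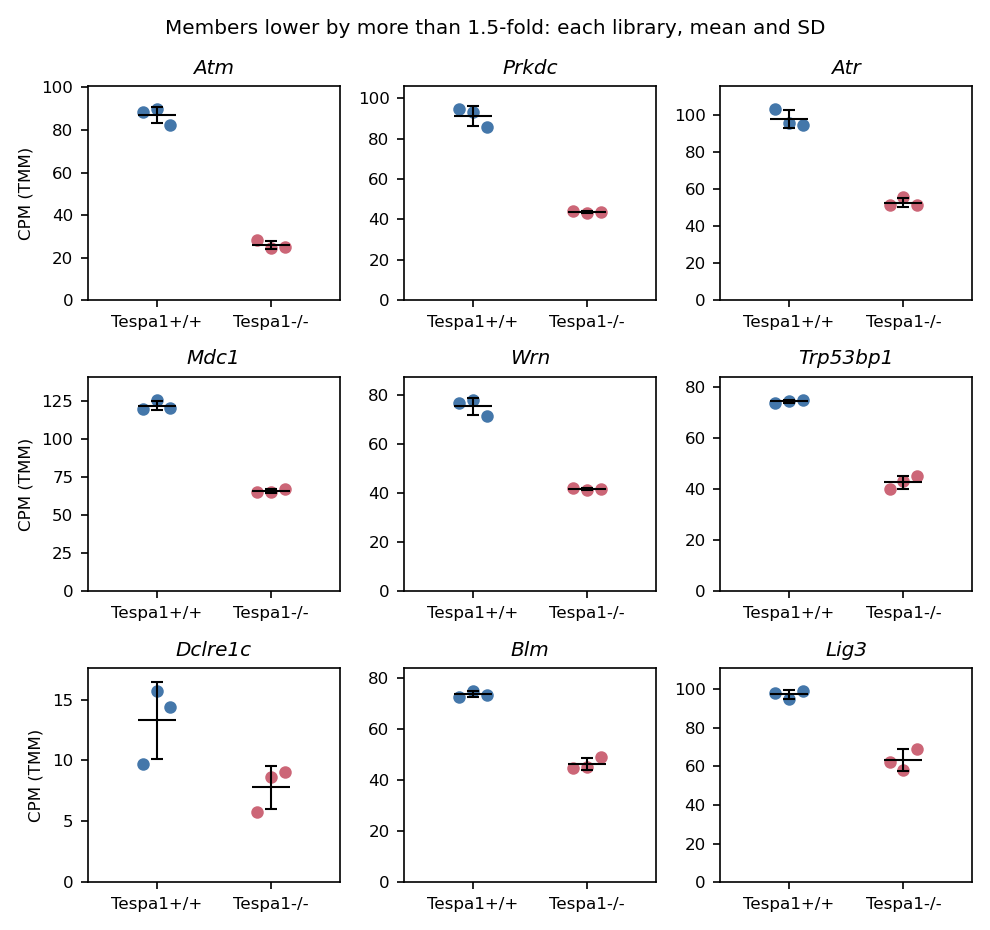
CPM of the 9 members called lower, with 1 point per library, the mean and the SD, and each axis starting at 0. In every panel the Tespa1-/- points lie below the Tespa1+/+ points, by the largest ratio for Atm, and in Dclre1c the lowest Tespa1+/+ point (9.74 CPM) and the highest Tespa1-/- point (9.03 CPM) nearly meet.

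No Fanconi gene was called in either direction. At smaller folds 4 of 9 were lower and 3 higher, near the 31.8% and 31.5% of all genes tested. Under some of the alternative settings Fanca, Fancd2, Fanci or Fancm was called lower, or Fance higher. The pathway removes crosslinks between DNA strands, and its loss in people causes bone marrow failure. Both genes of the ID complex, Fancd2 and Fanci, were lower in RNA. Their products are marked with ubiquitin when the pathway is switched on. Fancd2 was at 72.3, 64.7 and 65.7 CPM against 48.2, 45.8 and 44.9 CPM (log2 fold change -0.54, SE 0.06, edgeR adjusted p 1.63e-04), and Fanci was at -0.53 (SE 0.05, adjusted p 1.15e-04). After the length correction they were at -0.19 and -0.33, and both still passed.

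Of the core complex that attaches the ubiquitin, Fanca was lower at 86.9, 91.7 and 99.4 CPM against 64.6, 63.5 and 59.7 CPM (log2 fold change -0.56, SE 0.06, edgeR adjusted p 1.53e-04). Fance was higher at 12.2, 13.4 and 15.2 CPM against 20.7, 19.3 and 17.6 CPM (log2 fold change 0.51, SE 0.11, adjusted p 0.00454). Fancl, the ubiquitin ligase subunit, was at 0.31 (adjusted p 0.0175) and Fancf at 0.31 (adjusted p 0.0341). Corrected for length, Fanca was at -0.16 (adjusted p 0.0548) and Fancf at 0.06 (adjusted p 0.641), neither of which passed, while Fance (0.44, adjusted p 0.00973) and Fancl (0.26, adjusted p 0.0353) did. Fancg, another core subunit, was nearest to no change with 458, 860 and 380 counts against 483, 353 and 340 counts, and Fancc was at -0.05. The translocase gene Fancm was at -0.53 (SE 0.17, adjusted p 0.0256), and at -0.05 after the correction (adjusted p 0.813). Several of these calls depended on a library. The adjusted p was 0.0581 and 0.076 for Fancm without Tespa1+/+ replicate 1 and without Tespa1-/- replicate 3. For Fancl it was 0.0531 and 0.0543 without replicate 2 of Tespa1+/+ and of Tespa1-/-. For Fancf it lay between 0.0525 and 0.098 when any Tespa1+/+ library or Tespa1-/- replicate 2 was left out. DESeq2 gave adjusted p values of 0.0856 for Fancl and 0.203 for Fancf.

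Neither mismatch repair gene was called. Msh6, which takes part in recognising mispaired bases, was at 167, 174 and 179 CPM in Tespa1+/+ and at 147, 137 and 136 CPM in Tespa1-/- libraries. The groups did not overlap, and the log2 difference of -0.31 (SE 0.04, edgeR adjusted p 6.55e-04) was -0.24 after the length correction. Pms2, an endonuclease subunit and the mismatch gene nearer to no change, had 511, 1204 and 484 counts against 565, 459 and 313 counts (log2 fold change -0.14, SE 0.14).

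Of 6 excision and single-strand break repair genes, Lig3 was called lower. DNA ligase III, its product, seals nicks with XRCC1 as a partner. Lig3 (ENSMUSG00000020697, chromosome 11, 82781108 to 82804274) had 1778, 2994 and 1467 counts in Tespa1+/+ and 1062, 840 and 858 counts in Tespa1-/- libraries. Its level was 97.2 ± 2.15 against 63.1 ± 5.71 CPM (SD, n = 3 each). The log2 difference was -0.62 (SE 0.07, edgeR adjusted p 1.51e-04), and -0.31 after the length correction. It lay just inside the fold limit, and without Tespa1-/- replicate 2 it was at -0.56 and outside it. Exons of Rffl on the opposite strand overlap 25.07% of its exon length.

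Xrcc1, the scaffold, was nearest to no change at 54.8, 61.0 and 61.8 CPM against 67.0, 68.8 and 61.2 CPM (log2 fold change 0.15, SE 0.07), and Ogg1, the glycosylase for oxidised guanine, was at 0.18 (SE 0.19). Parp1, the sensor of strand nicks, was lower by a small amount that exceeded the spread between libraries, at 495, 507 and 509 CPM against 449, 425 and 429 CPM (log2 fold change -0.21, SE 0.03, edgeR adjusted p 5.69e-04). Corrected for length, Parp1 was at -0.06 and did not pass (adjusted p 0.182), while Xrcc1 was at 0.36 and passed (adjusted p 0.00301). Ercc1 and Ercc4, which encode the partners of a nuclease, were at 0.38 (SE 0.13, adjusted p 0.0357) and -0.17 (SE 0.08, adjusted p 0.0908). With the length correction Ercc1 was at 0.31 (adjusted p 0.0775). For Ercc1 the uncorrected adjusted p rose to between 0.0645 and 0.101 without Tespa1+/+ replicate 1 or 3 or without Tespa1-/- replicate 2 or 3.

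Levels between genes were compared per length, as FPKM (fragments scaled by gene length and library total). In Tespa1+/+ LSKs, Parp1 led with a level of 70.7 ± 0.964 FPKM, followed by Msh6 at 36.3 ± 1.21, Rad50 at 19.0 ± 0.252, Mdc1 at 15.5 ± 0.379 and Nbn at 12.9 ± 0.666 FPKM (SD, n = 3). In total 7 members exceeded 10 FPKM and 10 lay under 2 FPKM. Lig4, at 0.532 ± 0.0748 FPKM, and Dclre1c, at 0.846 ± 0.198 FPKM, were the lowest. Of the 45 neighbouring pairs in this order, 30 had overlapping ranges over the Tespa1+/+ libraries, but the first 4 genes were separated from each other. In Tespa1-/- LSKs, Mdc1 was at 7.81 ± 0.156 FPKM, below Nbn at 13.1 ± 0.961 FPKM, a reversed order of those 2 genes.

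To set the members beside other repair genes, 109 companion genes of the same pathways and of translesion synthesis and direct reversal were examined, of which 108 were tested. At the call rule 8 were higher (7.41%) and 4 lower (3.7%), against 14.0% and 19.2% of all genes tested. At any fold 35 were higher (32.4%) and 27 lower (25%), against 31.5% and 31.8%. Their median log2 fold change was 0.07. The companions have shorter exons, with a median of 4721 bases against 5802 for the members, and their median after the length correction was 0.15.

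Companions called lower came from checkpoint, end joining, Fanconi and translesion roles. Dntt, which encodes the terminal transferase that adds bases at antigen receptor joints in lymphoid progenitors, fell from 151.1 to 31.8 CPM (log2 fold change -2.25, SE 0.05, edgeR adjusted p 3.29e-07). Rev3l, the catalytic subunit of the translesion polymerase zeta, was at -1.23 (SE 0.07), Fan1, a crosslink nuclease, at -1.11 (SE 0.10), and Timeless, a fork protection factor, at -0.60 (SE 0.04). After the length correction Dntt (-2.42), Fan1 (-0.89) and Rev3l (-0.64) were still called lower.

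Companions called higher were spread over several roles. In recombination, Sem1, a small partner of BRCA2, and Swi5, an accessory factor of strand exchange, were both at 0.94 (SE 0.06 and 0.12). In excision repair, Nthl1, a glycosylase for oxidised pyrimidines, was at 0.82 (SE 0.10), and the subunits Gtf2h4 and Gtf2h5 of the repair and transcription factor TFIIH were at 0.79 and 0.64. The checkpoint clamp gene Rad1 was at 0.64 and Alkbh2, which reverses alkylated bases, at 0.71. Levels were low for Rad1 (9.27 against 14.3 CPM), Nthl1 (7.03 against 12.4 CPM) and Alkbh2 (5.38 against 8.75 CPM). After the length correction, 7 of the 8 companions were still called higher, the exception being Alkbh2 at 0.37. Rad17 (0.69), Ercc8 (0.65), Tdp1 (0.62) and Aptx (0.60) were called higher only then, and Neil1 (-0.61) lower. In all, 11 of 108 companions were then called higher and 4 lower, against 8.21% and 15.2% of all genes. Without the correction, 31.5% of all genes tested were higher and 31.8% lower at any fold, and the small counts per role are given only as description. Of 34 excision companions, the largest role, 14 were higher and 6 lower, and in recombination 6 of 20 were higher and 6 lower. Checkpoint companions had 4 higher and 4 lower of 11, sensing 5 and 2 of 12, end joining 3 and 1 of 8, Fanconi 1 and 3 of 9, mismatch 0 and 1 of 5, and translesion synthesis with direct reversal 2 and 4 of 9.

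**Figure D4:**
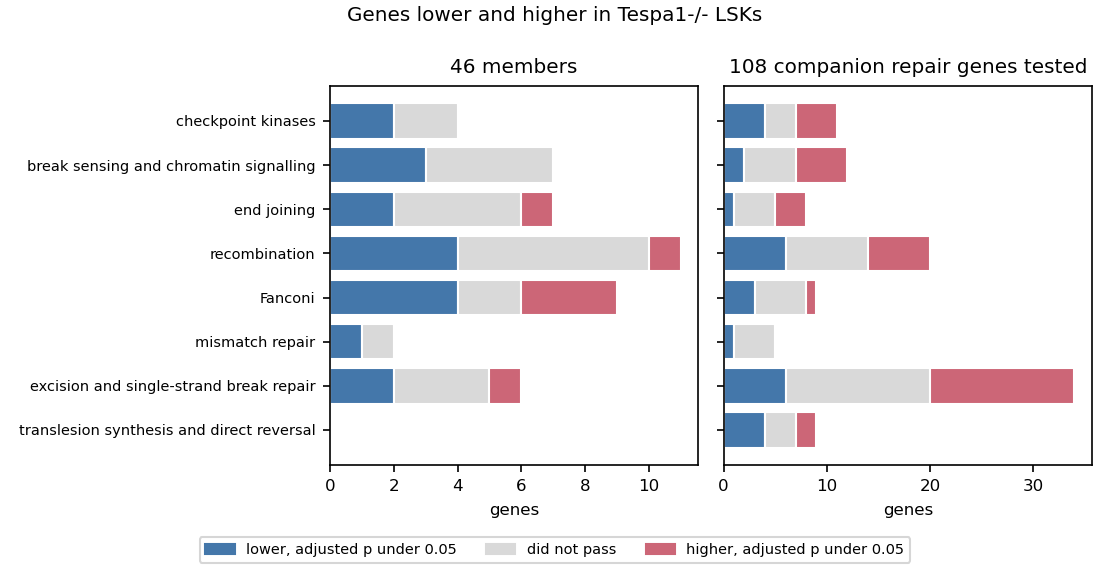
Number of genes per role that were lower, did not pass or were higher in Tespa1-/- LSKs, for the 46 members (left) and the 108 companions tested (right). Counts are at any fold, with an adjusted p under 0.05 and without the length correction. Members have 18 lower and 6 higher genes, and companions 27 lower and 35 higher. Excision repair, the largest companion role with 34 genes tested, holds 14 of the latter. Of all genes tested, 31.8% were lower and 31.5% higher.

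Many repair genes are transcribed with S phase, so proliferation genes were set beside them. Of 16 proliferation genes, 7 were higher and 6 lower at any fold, and their summed level was 5468 to 5476 CPM in Tespa1+/+ and 5084 to 5158 CPM in Tespa1-/- libraries. Their median log2 fold change was 0.06. Among the abundant genes in the sum, Mki67 fell from 821.4 to 497.1 CPM and Top2a from 750.4 to 633.4 CPM. Rrm2 rose from 192.8 to 290.7 CPM. Corrected for length, Mki67 was at -0.26, Top2a at 0.17, the opposite direction, and Rrm2 at 0.48. Of the 16 genes, 8 were then higher and 3 lower at any fold. The summed level of the members was 2683 to 2727 CPM against 2133 to 2196 CPM.

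Such genes are controlled through E2F and CHR elements, at which activator E2F factors switch them on and the DREAM complex represses them in resting cells, so the letters of both were looked for in RefSeq promoters (GRCm38.p6, 250 bases before to 50 after the start). RefSeq gave 42 promoters for 39 of the 46 members, and Rad50, Nbn, Prkdc, Xrcc2, Wrn, Exo1 and Fancd2 were not matched. The E2F letters TTTCCCGC, TTTCGCGC, TTTGCCGC or TTTGGCGC, on either strand, were found in 8 of the 42 promoters (19%) and in 744 of all 32851 promoters (2.26%). The CHR letters TTTGAA, which overlap none of these, were found in 1 of the 42 (2.38%) and in 17.9% of all promoters. The members with E2F letters were Brca2, Chek2, Fancg, Mdc1, Msh6, Rad51c and Xrcc6, and in Msh6 and Rad51c the letters reached past the start. The stretches before the start are shown, 5′ to 3′ along the gene, with the matched letters in capitals.
Mdc1, chr17:35841462-35841497, + strand: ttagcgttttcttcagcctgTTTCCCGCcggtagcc
Brca2, chr5:150522433-150522480, + strand: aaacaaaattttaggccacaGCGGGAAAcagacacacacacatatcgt
Chek2, chr5:110839811-110839858, + strand: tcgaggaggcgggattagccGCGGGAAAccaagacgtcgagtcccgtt
Fancg, chr4:43010326-43010373, - strand: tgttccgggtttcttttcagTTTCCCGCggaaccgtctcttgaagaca
Xrcc6, chr15:82016303-82016350, + strand: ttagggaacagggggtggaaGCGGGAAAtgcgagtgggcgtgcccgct

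All 5 carry TTTCCCGC or its reverse complement, between 168 and 16 bases before the start. Of these, Mdc1 was called lower (log2 fold change -0.89) and Brca2 was lower just short of the fold limit (-0.58). Chek2 (0.14), Fancg (0.04) and Xrcc6 (0.03) did not pass. Rad51c, with such letters at or after its start, was higher (0.50), and Msh6 was lower (-0.31). A match of letters is a description and shows no binding, and its part in these levels was not tested. The stretches shown for Fancg and Xrcc6, and their RefSeq starts, lie inside the genes as annotated for the counts.

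Of the 46 members, 10 share over 10% of their exon length with exons of another gene, namely Rnf8, Trp53bp1, Rad54l, Fanca, Fancc, Fancf, Fanci, Fancl, Lig3 and Ogg1. The libraries were stranded, but whether counting used the strand is not given in the sources used here, so these counts are uncertain to that extent.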

How the data were processed

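Poly-A RNA of sorted LSKs was sequenced as stranded paired-end libraries. The authors deposited raw counts and FPKM values per gene, and the submitters' processing notes name CASAVA 1.8, HISAT2, StringTie, edgeR and GRCm38 without their roles. Here, deposited counts were filtered (filterByExpr), scaled (TMM) and tested with edgeR 4.0.16 in R 4.3.3 (quasi-likelihood, 6 libraries, no covariates, Benjamini-Hochberg over 15332 genes). P-values measure the spread between libraries, whose biological independence was not stated, and depth covers counting error only. The length correction fitted the log2 CPM deviation on GENCODE M21 union exon length by loess (span 0.5), centred per library, as an edgeR offset. Deposited FPKM values served for levels and for limma 3.58.1. Of the table's genes, 54784 had the annotation's coordinates.

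Groups came from the sample titles. Per role, the members with the largest called rise and fall and the one nearest no change have values per library, and others were named for their role in the pathway after their values were seen. Companions past the call rule are named, except 1 that is not reported here. The members, lists and tests were chosen with earlier results of these data known. Scripts were tested on simulated data. Alternatives were RLE factors, total counts, other filters, DESeq2 1.42.0, limma-trend with pseudocounts of 1 and 0.1, a replicate block, length corrections and leaving out each library.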

Additional observations from a re-analysis of the deposited data

How the results depend on the processing

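Of 748 pairs of a gene (46 members and Tespa1) and a setting, 664 stayed on their side of the adjusted p threshold, some with a change of sign where neither value passed it. Members called higher and lower numbered 0 and 9, also with RLE factors, DESeq2, no filter and the replicate block. A minimum of 10 counts in every sample gave 11 lower, adding Brca2 and Fanca. Limma-trend on FPKM gave 8 lower with a pseudocount of 1 and 13 with 0.1, both without Dclre1c. The latter added Brca2, Fanca, Fancd2, Fanci and Fancm. Total counts gave 14 members lower, 5 and 7 companions higher and lower, and a median of -0.25 for the members, while shifting the median of all genes by -0.10 and their calls from 2148 and 2951 to 1491 and 3516. With FPKM, 1070 (pseudocount 1) and 1365 (0.1) genes were higher, 1626 lower (pseudocount 1), 2 and 4 companions higher, 7 companions lower (0.1), and the members' median was -0.23 (0.1). The length correction gave 1 member higher, 1 lower, a median of 0.05 and 1259 genes higher. Taking gene length from the ratio of count to FPKM (implied length), these were 2, 4 (Atm, Mdc1, Prkdc, Wrn), 0.05 and 1389. With the exon length correction 13 members changed sign. Reversals in which at least 1 of the values compared passed the threshold were found, all with length corrections, for Mre11a (0.01), Rad50 (0.13), Brca1 (0.18, implied 0.09), Brca2 (0.02, implied 0.01), Rad54l (0.30, implied 0.18), Fancc (0.33, implied 0.32) and, with implied length, Rnf168 (0.14). The cause of these changes was not tested.

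Without 1 library, 0 to 1 members were higher (Fance without Tespa1+/+ replicate 3, Nhej1 without Tespa1-/- replicate 2), 9 to 10 lower, 9 to 10 companions higher, 3 to 4 lower, 2078 to 2246 genes higher, 2716 to 2885 lower, and the members' median was -0.14 to -0.08. With the length correction, an addition after seeing the data, this gave 1 to 2 members higher and 1 lower. Replicate numbers are shared between groups, and whether they pair the libraries was not settled. Correlations of deviations between libraries of the same number were 0.0459, 0.0107 and 0.0595. Each library's highest was with its own number, a hint only. The replicate block gave 0 and 9 members, 8 and 4 companions, 2101 and 2871 genes and a median of -0.14, and with the length correction 1 and 1 members. Among members, only Fancf lost its adjusted p under 0.05 with the block (0.0691).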
